A study of Oryza sativa with 16 samples.

Results

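Roots of Nagina 22 (N22) grown at low nitrogen with ample water (N-W+) were compared with N22 roots grown at full nitrogen and ample water (N+W+). N22 is a rice variety of the aus group that is known for its tolerance of drought. The comparison uses 2 of the 16 libraries of the series, 1 for each treatment, chosen by their labels. Of the 37849 genes listed for each library, 22558 had at least 1 CPM (reads scaled to a common library size) in 1 of the 2 libraries and were counted. The other libraries are IR64 and N22 roots and shoots under the same pair of treatments, under low water alone (N+W-) and under low nitrogen and low water together (N-W-).

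Both groups were 15-day-old N22 seedlings watered with 100 mL, according to the labels, and the labels name no treatment that set them apart other than the nitrogen supply. The water-stressed groups (N+W- and N-W-) were 21 days old and received 10 mL by the same labels, so that watered and water-stressed pairs also differ in labelled age. The labels disagree on the nitrogen dose. The sample description gives NH4NO3 at 0.04 mM for N-W+, whereas the growth protocol assigns 0.4 mM to the stressed and 0.08 mM to the unstressed seedlings. The published methods differ from both: they give N- plants a far lower NH4NO3 supply than N+ plants, kept low for the whole growth period, and the same growth period for plants of every treatment. The groups are therefore named by treatment. RNA of biological replicates had been pooled before library construction. There is therefore no replicate check of any difference below, no test across plants was possible, and no p-value is given. Intervals are exact binomial 95% intervals of the reads of the pair and cover counting error only, as does the floor of 3 reads used where a library had no read.

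Plants take up nitrogen from the soil as nitrate, ammonium and, to a lesser degree, urea. High-affinity nitrate carriers of the NRT2 family need a partner protein of the NAR2 family, and low-affinity and regulatory carriers belong to the NRT1/PTR family, also called NPF. Ammonium enters through AMT transporters and urea through DUR3. Nitrate is reduced to ammonium by nitrate and nitrite reductase, and ammonium is built into glutamine and asparagine. Nitrogen can also be recovered from ureides such as allantoin.

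The N-W+ library held 12136733 exon reads and the N+W+ library 10370030, within the range of the 8 root libraries (8272195 to 13675454). In the N-W+ and N+W+ libraries 83.9% and 82.5% of exon reads mapped to a single place, and intron reads were 5.35% and 4.12% of gene reads. Exon reads were 35.9% and 27.1% of the mapped fragments from which the deposited RPKM was computed. RPKM therefore scales this pair differently from the exon counts and raises the median log2 ratio of all genes by 0.37 at a pseudocount of 0.1. Markers of root tissue were present, with reads for 12 of 12 genes in both libraries. Without the nitrate carrier NRT2.3, their summed level was 2314 CPM under N-W+ and 4164 CPM under N+W+. With NRT2.3 it was 5064 and 4231 CPM. Without NRT2.3, the marker with the most reads under N+W+ was RCc3, with 4175 reads against 21680. Under N-W+ it was LSI2, with 12455 against 9198. The median log2 ratio of the 12 markers was 0.04. Of 26 markers of green tissue, 19 had reads under N-W+ and 25 under N+W+. Their summed level was 22.8 and 127 CPM, against 25.2 to 116 CPM in the other 6 root libraries and 85638 CPM in N22 shoots under N+W+. Of 41 markers of seed remnants, 34 and 32 had no read. The 5 KNOX markers of meristem summed to 37.3 and 35.9 CPM.

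Low nitrogen roots of N22 differed from optimal roots mainly by genes that were lower. Genes whose log2 ratio of N-W+ to N+W+ lay beyond 2 in either direction are called over the fold. This held for 526 genes that were higher (2.33% of those counted) and 1274 that were lower (5.65%). Higher genes were 29.2% of the 1800, a share that ranged from 21.8% to 42.7% under the alternatives. The counting interval lay wholly beyond the fold for 156 higher genes (0.692%) and 580 lower genes (2.57%). The median log2 ratio of all counted genes was 0.02. With RPKM and a pseudocount of 0.1, 457 genes were higher and 613 lower, so that higher genes made up 42.7%.

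**Figure D1:**
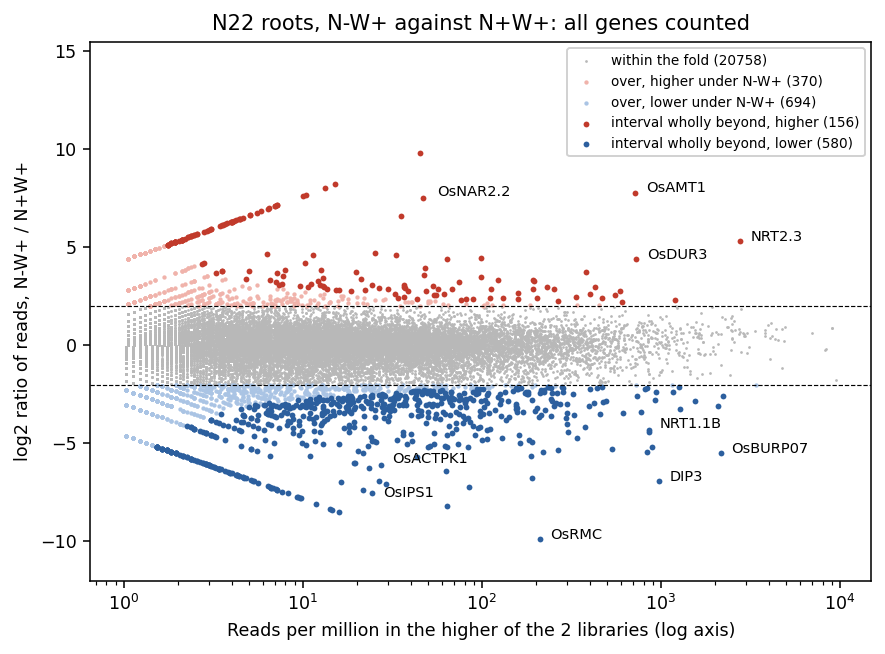
Each point is 1 of the 22558 genes counted, with the log2 ratio of reads (N-W+ over N+W+) against the level in the higher of the 2 libraries in CPM on a log axis. Dashed lines mark the fold of 2 on the log2 scale, dark points the 156 higher and 580 lower genes whose counting interval lies wholly beyond it, and the slanted rows at the left edge are genes with 0 or a few reads in 1 library.

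The genes over the fold were weaker in reads than the rest. The median level in the higher library was 2.90 CPM for higher genes and 6.16 CPM for lower genes, against 11.4 CPM for all counted genes. Fewer than 30 reads in the pair stood behind 226 higher genes (43.0%) and 391 lower genes (30.7%), against 10.1% of all counted genes. In N+W+, 127 of the higher genes had no read, and in N-W+ 180 of the lower genes had none. Reads that mostly mapped to more than one place were also more common. Under 50% of reads were unique in 227 higher genes (43.2%) and 376 lower genes (29.5%), against 16.2% of all counted genes. At the level filter, 328 genes between 0.9 and 1 CPM were left out and 331 between 1 and 1.1 CPM were counted. At the fold, 197 genes lay between 1.9 and 2 on the log2 scale and 181 between 2 and 2.1, so the counts depend on where the line is drawn.

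The carriers of the high-affinity nitrate system were higher under N-W+. NRT2.3 (Os01g0704100, chromosome 1 from 29188850 to 29190936 of IRGSP-1.0), a high-affinity nitrate carrier of the root, had 31269 reads under N-W+ and 659 under N+W+, or 443 against 8.26 RPKM. Its log2 ratio was 5.34 (interval 5.23 to 5.46). OsNAR2.2 (Os04g0480200, chromosome 4 from 24018298 to 24019456), which encodes a NAR2-type protein, had 534 reads against 2, a log2 ratio of 7.52 (5.98 to 10.89). NRT2.4 (Os01g0547600) had 289 reads against 9, a log2 ratio of 4.71 (3.84 to 5.93). Both of these genes were thus close to undetected at full nitrogen. NRT2.1 (Os02g0112100) had 13566 reads against 2331 and a log2 ratio of 2.32 (2.25 to 2.38). Its neighbour NRT2.2 (Os02g0112600) had 31589 against 7560 (1.84, 1.80 to 1.88), and NAR2.1 (Os02g0595900), the partner of the NRT2 carriers, had 21920 against 4857 (1.95). The last pair stayed just inside the fold, and with RPKM at a pseudocount of 0.1 they passed it (2.24 and 2.35). NRT2.1 and NRT2.2 are near-identical copies: 11.1% and 4.99% of their reads under N-W+ were unique. From unique reads alone the log2 ratios were 2.45 and 2.08.

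The study designed primer pairs for several of these transcripts, and those of the pair of NAR2 genes are shown here because one was nearly undetected and the other well expressed at full nitrogen. All letters are in lower case, 5′ to 3′, and where the primers lie within each gene was not looked up.
OsNAR2.2 forward: tacaaggcggtgaaggtga
OsNAR2.2 reverse: aactgacacgccttgtcct
NAR2.1 forward: caagagcgtgaaggtgaagc
NAR2.1 reverse: tgcacggtgaccttgaact

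NRT1.1B (Os10g0554200, chromosome 10 from 21757771 to 21762202), a nitrate carrier that also takes part in nitrate sensing, went the other way. It had 456 reads under N-W+ and 8320 under N+W+, a log2 ratio of −4.41 (−4.55 to −4.28). Its relatives OsPTR2 (Os12g0638200, 56 against 310 reads) and OsPTR3_2 (Os12g0231000, 2 against 17 reads) were lower by log2 ratios of −2.68 (−3.13 to −2.28) and −3.03 (−6.47 to −1.24). OsNRT1.1A (Os08g0155400), another carrier of the NRT1 group, had 1618 reads against 2419 (−0.80, −0.90 to −0.71). OsNRT1.5A (Os02g0689900) had 3017 against 1005 (1.36, 1.26 to 1.47). Of 29 genes listed for nitrate transport, 24 were counted, 4 were over the fold and higher, and 3 were lower. That is 16.7% and 12.5% of the counted members, beside 2.33% and 5.65% of all genes, and their median log2 ratio was 0.47. The summed level of the list was 10382 CPM under N-W+ and 4162 CPM under N+W+.

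Among ammonium and urea carriers, OsAMT1, OsAMT3_2 and OsDUR3 were over the fold and higher. OsAMT1 (Os02g0620500, chromosome 2 from 24683709 to 24685205), which the annotation describes as similar to the ammonium transporter AMT1;2, had 8169 reads under N-W+ and 32 under N+W+. Its log2 ratio of 7.75 (7.27 to 8.32) was the highest lower bound of all genes counted. Only 4.17% and 3.12% of those reads were unique, so the share of near-identical copies in the count is uncertain. The unique reads were 341 and 1, a log2 ratio of 7.60 with the prior count. AMT1_1 (Os02g0620600), an ammonium transporter beside it on the chromosome, had 1191 reads against 269 (1.92, 1.73 to 2.12), and AMT1_2 (Os04g0509600) had 3324 against 2010 (0.50, 0.42 to 0.58). OsAMT3_2 (Os02g0550800) had 24 reads against 0, at least 6.85-fold higher, with 9 unique reads. OsAMT2_1 (Os01g0831300) lay on the other side with 70 reads against 145 (−1.27, −1.71 to −0.85).

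OsDUR3 (Os10g0580400, chromosome 10 from 23156882 to 23159586), the high-affinity urea transporter, had 8283 reads under N-W+ and 335 under N+W+, a log2 ratio of 4.40 (4.25 to 4.57). OsALN (Os04g0680400), the allantoinase that opens the ring of allantoin in ureide breakdown, had 1119 against 44 reads (4.43, 4.01 to 4.91). OsUPS1 (Os12g0503000), an allantoin transporter of the ureide permease family, had 8 against 616 reads (−6.40, −7.71 to −5.50). The enzyme of ureide breakdown and the ureide transporter thus stood at opposite ends. Of 13 genes in this list 12 were counted, 4 were over the fold and higher (33.3%, beside 2.33% of all genes) and 1 was lower (8.33%, beside 5.65%). The median log2 ratio was 0.71. No gene over the fold in this list or the last changed sign under any alternative in which it was counted.

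The reductases of nitrate and nitrite differed little. The nitrate reductase genes OsNIA1 (Os02g0770800) and OsNR1 (Os08g0468100) had 3920 against 5207 reads (−0.63, −0.69 to −0.57) and 2449 against 1953 (0.10, 0.02 to 0.19). The nitrite reductase gene NiR (Os01g0357100) had 3011 against 4294 (−0.74, −0.80 to −0.67). Among the genes that supply reductant, OsG6PDH3 (Os07g0406300), a glucose-6-phosphate dehydrogenase, had 1500 against 313 reads, a log2 ratio of 2.04 (1.86 to 2.22). It was 1.71 from unique reads, within the fold. OsG6PDH4 (Os03g0412800), of the same enzyme, was over the fold with only 21 reads against 4 (2.03, 0.60 to 4.17). Its unique reads were 1 and 2, so its direction is uncertain. The ferredoxin gene Fd (Os05g0443500) had 738 against 186 (1.76). Of 11 genes counted, these 2 were over the fold and higher (18.2%, beside 2.33% of all genes), and 0 lower. From unique reads 0 were over it in either direction. The median was 0.10, and it was −0.31 with a minimum of 5 CPM, so no direction can be given for the list.

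In ammonium assimilation single genes were over the fold on both sides. OsASNase2 (Os04g0650700), an asparaginase that releases ammonium from asparagine, had 4893 reads under N-W+ and 535 under N+W+, a log2 ratio of 2.97 (2.84 to 3.10). ASN1 (Os03g0291500), an asparagine synthetase, had 168 against 1011 (−2.81, −3.06 to −2.58), while the synthetase gene ASN (Os06g0265000) had 790 against 242 (1.48, 1.27 to 1.70). OsGLN2 (Os04g0659100), the plastid glutamine synthetase, had 13 against 101 reads (−3.13, −4.14 to −2.34). The cytosolic form OsGS1_1 (Os02g0735200) had 3610 against 2461 (0.33, 0.26 to 0.40). OsGLT2 (Os05g0555600), a glutamate synthase gene, had 19 reads against 1 (3.48, 1.37 to 9.40). The glutamate dehydrogenase genes OsGDH1 (Os03g0794500) and OsGDH2 (Os04g0543900) had 245 against 664 reads (−1.66, −1.88 to −1.45) and 412 against 1268 (−1.84, −2.01 to −1.68). Of 12 genes counted, 2 were over the fold in each direction (16.7% each, beside 2.33% higher and 5.65% lower of all genes), and the median was 0.34.

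**Figure D2:**
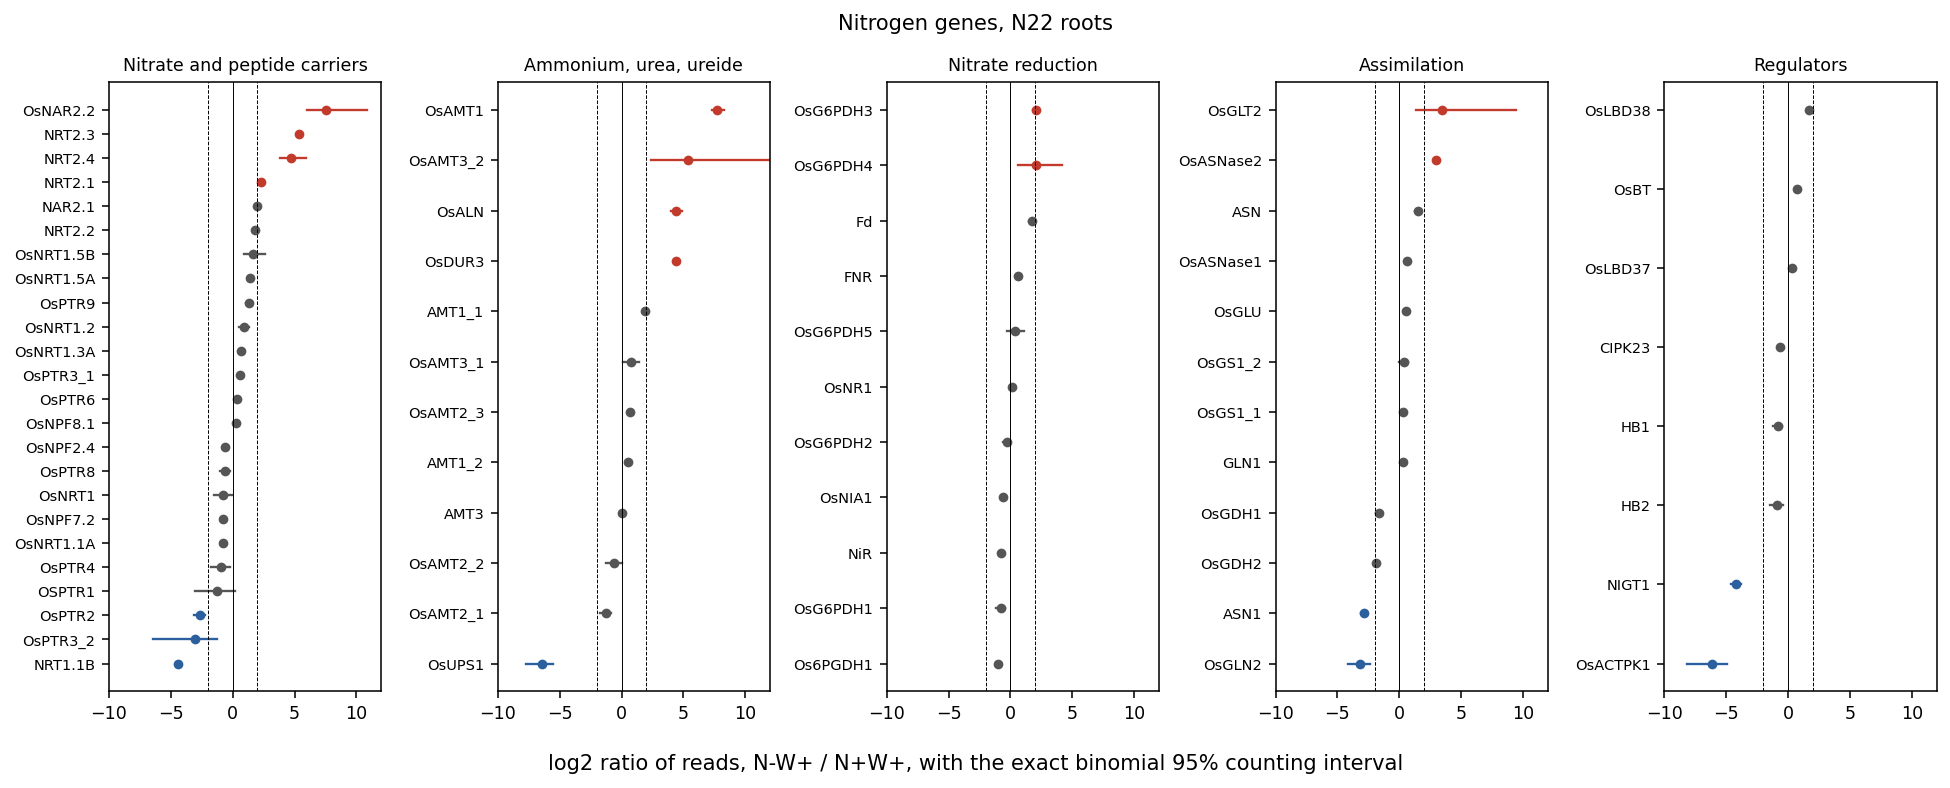
Log2 ratio of reads (N-W+ over N+W+, horizontal axis) of the counted genes of 5 nitrogen lists, with the exact binomial 95% counting interval as a line. Points over the fold (dashed at 2 and −2) are red where higher and blue where lower, from OsAMT1 at 7.75 to OsUPS1 at −6.40. The line of OsAMT3_2 runs off the axis because N+W+ had no read.

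A pair of regulators of nitrogen uptake was lower. OsACTPK1 (Os02g0120100, chromosome 2 from 1050786 to 1056830), a protein kinase that restrains ammonium uptake, had 4 reads under N-W+ and 267 under N+W+, a log2 ratio of −6.12 (−8.17 to −4.91). NIGT1 (Os02g0325600, chromosome 2 from 13096088 to 13098218), a repressor that nitrate induces, had 61 reads against 953, a log2 ratio of −4.18 (−4.59 to −3.81). OsLBD38 (Os03g0609500), of the LBD family whose relatives in Arabidopsis repress nitrogen responses, had 3653 against 949 (1.72, 1.62 to 1.83). OsLBD37 (Os03g0445700) had 2014 against 1370 (0.33, 0.23 to 0.43), and OsBT (Os01g0908200), a BTB protein that limits nitrate uptake, had 9397 against 4953 (0.70, 0.65 to 0.75). CIPK23 (Os07g0150700), a kinase that acts on nitrate and potassium carriers, had 804 against 1096 (−0.67, −0.80 to −0.54). Of 8 counted regulators, 0 were over the fold and higher and 2 of the 8 were lower, beside 5.65% of all genes, with a median of −0.76. The primers of the study for the 2 lower regulators are these.
OsACTPK1 forward: gactgcagagactggaacttatc
OsACTPK1 reverse: agcagctcccatagaacaatac
NIGT1 forward: agccgttcgagaaggagaa
NIGT1 reverse: tgtccgtctccatgtgtttc

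**Figure D3:**
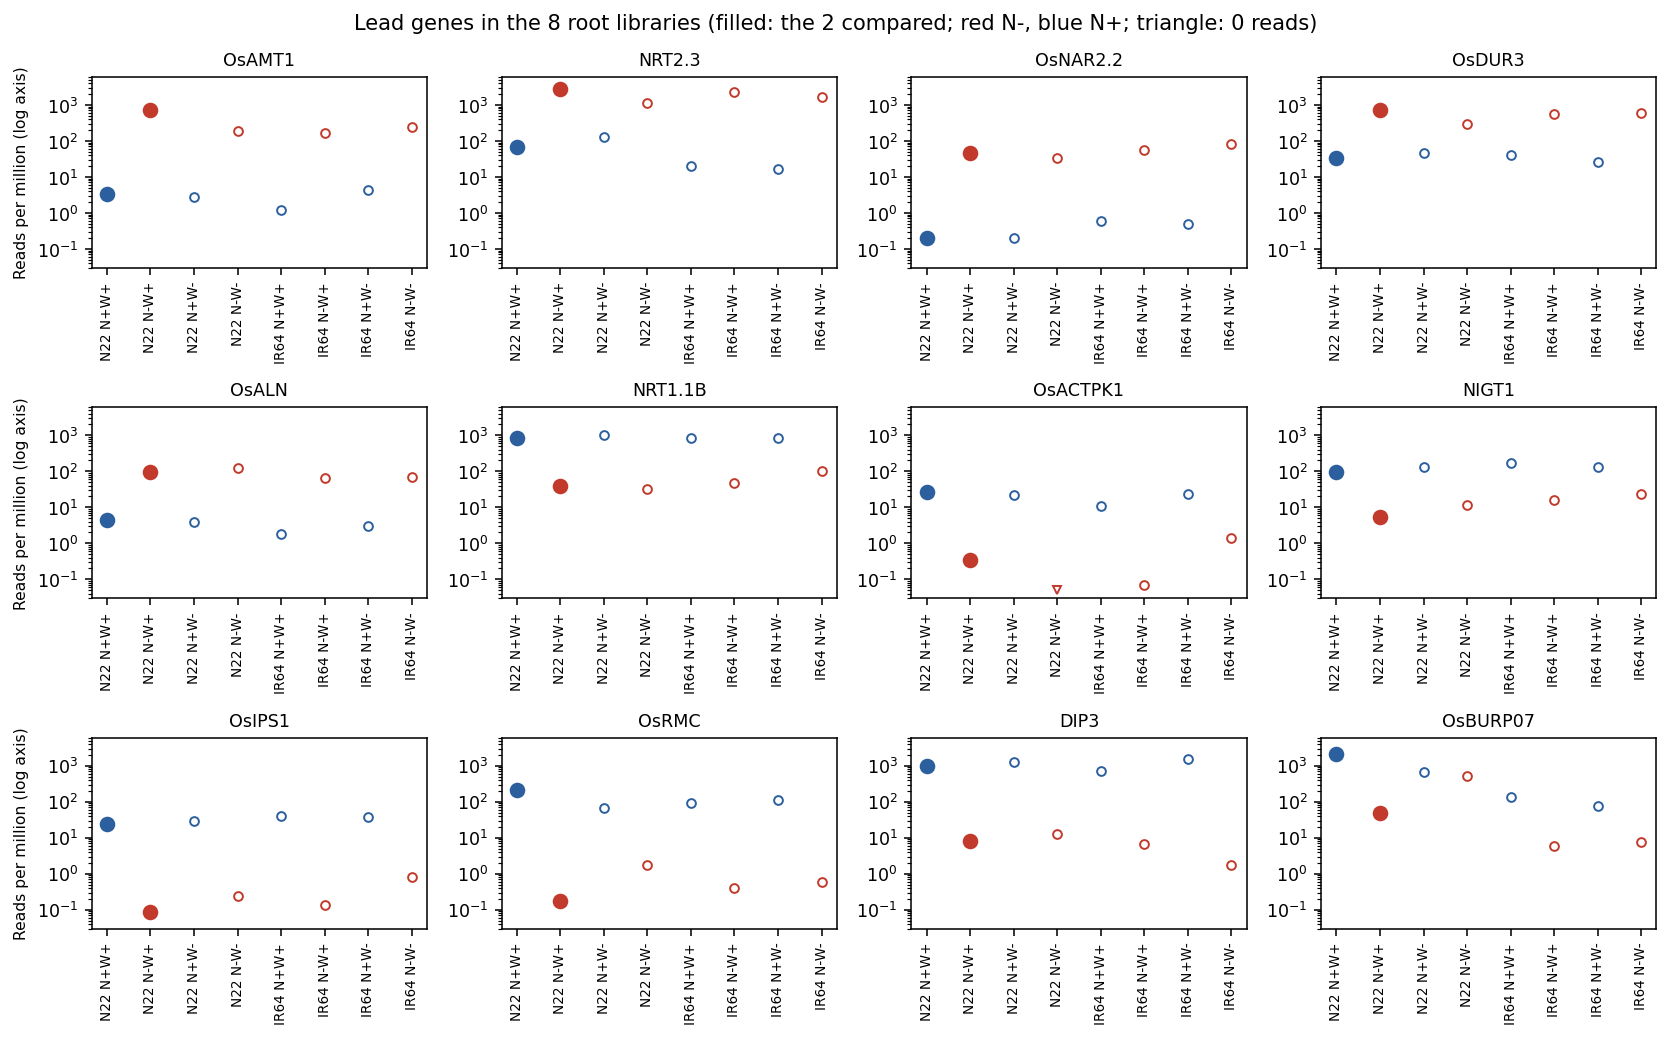
Level of 12 genes in CPM (log axis) in the 8 root libraries, 1 point per library. Filled points are the N22 libraries compared here, red is low and blue full nitrogen, and the triangle marks 0 reads. In each panel but that of OsBURP07 the low nitrogen libraries of both genotypes lie together on one side of the full nitrogen libraries.

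The lower genes with the clearest intervals lay mostly outside the nitrogen lists. OsRMC (Os04g0659300, chromosome 4 from 33641298 to 33642277), a cysteine-rich receptor-like protein known for its part in root growth, had 2 reads under N-W+ and 2042 under N+W+, a log2 ratio of −9.90 (−13.27 to −8.36). The tryptophan decarboxylase genes OsTDC3 (Os08g0140500) and TDC1 (Os08g0140300), neighbours on chromosome 8 that lead to tryptamine, had 2 against 620 reads (−8.18, −11.55 to −6.64) and 6 against 826 (−7.21, −8.78 to −6.20). DIP3 (Os05g0247100) had 90 against 9432 reads (−6.93, −7.25 to −6.64). OsLP (Os03g0663400) had 220 against 8132 (−5.43, −5.63 to −5.24). Also among the lower genes with the clearest intervals were PR1A, OsIPS1, OsUPS1, OsCYP76M7_1 and OsCLP. OsCLP (Os01g0937050) had no read against 138, at least 53.7-fold lower, but only 8.0% of its reads were unique.

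Genes of the BURP family, plant proteins that share a C-terminal domain, were lower as a cluster on chromosome 5. OsBURP07 (Os05g0217700, from 7249980 to 7251356) had 548 reads under N-W+ and 20987 under N+W+, a log2 ratio of −5.48 (−5.61 to −5.36). OsBURP02 (Os05g0217800, from 7255510 to 7257163) had 19 against 1853 (−6.79, −7.57 to −6.18). Both were named by the rule for clear intervals. OsBURP01 (Os05g0215000) and OsBURP06 (Os05g0215066) nearby, chosen after their values were seen, had 43 against 1842 and 279 against 8640 reads, and none of the OsBURP06 reads was unique. The same ratios between the water-stressed N22 roots (N-W- over N+W-) were −0.38 for OsBURP07, −1.56 for OsBURP02, −0.63 for OsBURP01 and −0.24 for OsBURP06. In IR64 roots OsBURP07 and OsBURP02 were at −4.56 and −4.91 at ample water and at −3.32 and −3.24 under water stress. The small ratios under water stress were thus not seen in IR64, and none of these differences between pairs was tested.

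Of the 15 higher genes with the clearest intervals, 10 had no symbol. These 10 had no read in N+W+, and 11 of the 15 had under 10% unique reads. When unique reads alone were counted, 5 of the 15 passed the level filter and all 5 stayed over the fold, OsAMT1, OsNAR2.2, MTd, NRT2.3 and OsDUR3. Of the 15 lower genes with the clearest intervals, 14 passed the filter and stayed over the fold in the same way. MTd (Os05g0202800) had 401 reads against 3 (6.62, 5.28 to 9.12). Other higher genes with a symbol were ERF92 (Os01g0752500), an AP2/ERF transcription factor, with 4307 against 275 reads (3.74, 3.57 to 3.93), and OsUGT706E2 (Os05g0527900), of the glycosyltransferases, with 539 against 38 (3.59, 3.13 to 4.12). OscpSRP43, OsCYP71AK1 and OsGSTU10 had 58, 51 and 41 reads against 0, with at most 10% unique.

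Among phosphate starvation genes, those over the fold were all lower. OsIPS1 (Os03g0146800), a noncoding RNA that binds a microRNA of phosphate signalling, had 1 read under N-W+ and 238 under N+W+, a log2 ratio of −7.54 (−13.43 to −5.63). PT6 (Os08g0564000), a phosphate carrier, had 58 against 1595 (−4.99, −5.41 to −4.63), and the purple acid phosphatase gene PAP27A (Os09g0506000) had 43 against 890 (−4.58, −5.07 to −4.15). Of 75 genes listed, 62 were counted, 0 were over the fold and higher and 22 lower (35.5% of the counted, beside 5.65% of all genes). For 16 of them the interval lay wholly beyond the fold. The median was −1.06, and it stayed below 0 under each alternative, while 7 members had an interval wholly above 0. With RPKM, 15 members were over the fold and lower at a pseudocount of 0.1, and 7 at a pseudocount of 1. Their summed level was 2804 CPM under N-W+ and 5193 CPM under N+W+.

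In the list of defence genes, every member counted from all exon reads at 1 CPM was at a lower level under N-W+. Of 24 counted genes for chitinases, pathogenesis-related (PR) proteins and proteinase inhibitors, 18 (75.0%, beside 5.65% of all genes) were over the fold and lower, 0 higher, and all 24 had an interval wholly below 0. PR1A (Os07g0129200) had 2 reads against 284 (−7.05, −10.43 to −5.51), the chitinase gene Cht9 (Os05g0399400) 3 against 189 (−5.98, −8.49 to −4.63), and RSOsPR10 (Os12g0555000), a PR10 protein of roots, 144 against 3302 (−4.74, −4.99 to −4.50). With genes without a read set at their bound, the list median of −2.72 became −2.55. With RPKM, 11 members were over the fold and lower at a pseudocount of 0.1, and 6 at a pseudocount of 1. From unique reads, gene reads and thinned reads, 1 member of 24, 25 and 25 counted was over the fold and higher. With no filter beyond 1 read, 2 of 37 were higher and 21 lower.

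Of 13 counted genes listed by symbol for diterpenoids, which include antimicrobial phytoalexins of rice, 7 (53.8%, beside 5.65% of all genes) were lower and 0 higher. The list was not narrowed to phytoalexin genes, and OsCPS1 (Os02g0278700), with 11 reads against 43, stood at its median. The 7 became 3 of the 8 counted at 5 CPM, 4 with a prior count of 5, and 3 and 1 with RPKM at pseudocounts of 0.1 and 1. OsMAS (Os04g0179200), a momilactone dehydrogenase, had 25 reads against 718 (−5.04, −5.70 to −4.49). OsCPS4 (Os04g0178300), which makes the precursor of the momilactones, had 5 against 156 (−5.05, −6.83 to −3.93). CYP76M14 (Os01g0561600), a cytochrome P450 of the list, had 12 against 177 (−4.05). Another cytochrome P450, OsCYP76M7_1 (Os02g0569900), was not in this list and had 1 against 211 (−7.36, −13.25 to −5.45). The list median was −2.14, or −1.96 with genes without a read at their bound.

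Of 91 counted class III peroxidases, which act on the cell wall and on peroxide, 26 (28.6%, beside 5.65% of all genes) were lower and 1 higher. prx20 (Os01g0962700) had 26 reads against 817 (−5.17, −5.82 to −4.64), and prx86 (Os06g0547400) 60 against 1039 (−4.33, −4.74 to −3.96). The list median was −1.33, and 15 and 5 members were lower with RPKM at pseudocounts of 0.1 and 1. Of 58 counted glutathione S-transferases, detoxifying enzymes, 16 (27.6%, beside 5.65%) were lower and 2 higher (3.45%, beside 2.33%), with a median of −1.19. With RPKM at the same pseudocounts, 11 and 6 were lower. OsGSTU4 (Os10g0528300) had 235 reads against 3648 (−4.18, −4.38 to −3.99), and OsGSTU5 (Os09g0367700) 110 against 1320 (−3.80, −4.10 to −3.53). Of the 2 higher members, OsGSTZ4 (Os11g0245100) had 49 against 9 (2.16, 1.18 to 3.43), and OsGSTU10 had no unique read.

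Aquaporins, the water channels, and expansins, which loosen the cell wall, had members over the fold and lower. Of 28 counted aquaporins, 9 (32.1%, beside 5.65% of all genes) were over the fold and lower and 1 was higher, with a median of −1.50, and 5 had an interval wholly above 0. With RPKM 9 and 4 were lower at pseudocounts of 0.1 and 1. OsTIP2_2 (Os06g0336200) and OsTIP2_1 (Os02g0658100), of the vacuolar membrane, had 160 against 2940 reads (−4.42, −4.66 to −4.19) and 125 against 1375 (−3.68, −3.96 to −3.42). OsPIP2_2 (Os03g0861300), of the plasma membrane, had 3 against 96 (−5.01, −7.53 to −3.63). OsTIP1_2 (Os03g0146100) had 2429 against 15045 (−2.85, −2.92 to −2.79). The higher member was OsNIP3_1 (Os08g0151900), with 87 against 17 reads. Of 28 counted expansins, 8 (28.6%, beside 5.65%) were lower and 0 higher, with a median of −1.64. With RPKM 4 and 3 were lower. OsEXPA9 (Os01g0249100) had 3 against 102 reads (−5.10, −7.61 to −3.72), and OsEXPB3 (Os10g0555900) 56 against 540 (−3.48, −3.92 to −3.09).

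Markers of green tissue were lower along with these lists, while the 12 root markers had a median log2 ratio of 0.04. The part of tissue makeup in these lists was not tested. Of 19 counted green tissue markers 12 were over the fold and lower (63.2%, beside 5.65% of all genes) and 0 higher (median −3.21, or −2.55 with genes without a read at their bound). CAB1R (Os09g0346500), a light-harvesting protein, had 17 reads against 354 (−4.56, −5.40 to −3.90). Of the root markers, RCc3 (Os02g0662000) had 4175 against 21680 reads (−2.60, −2.65 to −2.55) and RCc2 (Os10g0551800) 245 against 988 (−2.23, −2.44 to −2.03). RSOsPR10, the third lower root marker, was at −4.74, and OsEXPA17 (Os06g0108600), within the fold, at −1.66 (−2.91 to −0.62). The silicon carriers LSI1 and LSI2, chosen after their values were seen, had log2 ratios of 0.55 and 0.21. The regulators of root ground tissue OsSCR1, OsSHR1 and OsSHR2, chosen in the same way, were at 0.17, 1.25 and −0.12. RNA of whole roots cannot tell fewer cells of a type from less RNA per cell.

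In sugar transport, 6 of 34 counted genes were lower (17.6%, beside 5.65% of all genes) and 1 higher (2.94%, beside 2.33%), with a median of −0.64. With RPKM 3 and 1 were lower at pseudocounts of 0.1 and 1. The sugar exporter genes OsSWEET6a (Os01g0606000) and OsSWEET1a (Os01g0881300) had 10 against 166 reads (−4.21, −5.36 to −3.36) and 65 against 593 (−3.40, −3.81 to −3.04). The sucrose carrier gene OsSUT1 (Os03g0170900) had 96 against 15 (2.42, 1.66 to 3.35). In iron acquisition, 4 of 41 were lower (9.76%, beside 5.65%) and 1 higher (2.44%, beside 2.33%). Besides OsRMC, which that list holds for its link to iron in rice, NRAMP4 (Os02g0131800), an aluminium carrier of the NRAMP family, had 30 against 273 (−3.39). The iron list had a median of −0.17, which turned to 0.22 with RPKM at a pseudocount of 0.1.

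**Figure D4:**
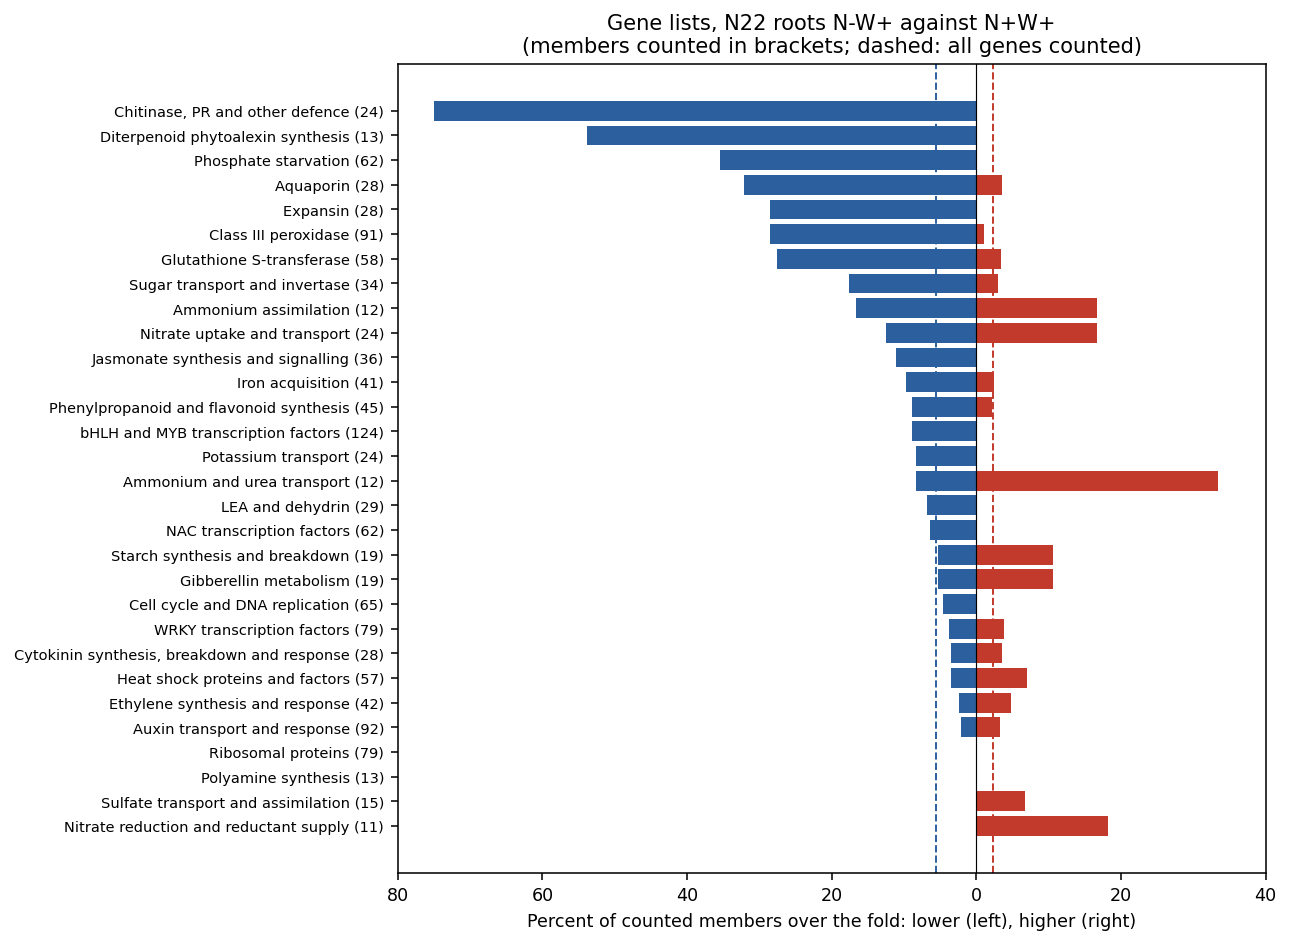
Percent of the counted members of each list that were over the fold and lower (blue, to the left) or higher (red, to the right) under N-W+, for lists other than tissue markers with 10 or more counted members (number in brackets). Dashed lines give the share over all 22558 genes, 5.65% lower and 2.33% higher. Defence genes stand furthest to the left at 75.0%, and ammonium and urea transport furthest to the right at 33.3%.

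Among hormone genes, the lists differed in how many members were over the fold. PIN5B_1 (Os08g0529000), an auxin carrier, had 241 reads under N-W+ and 19 under N+W+ (3.41). COW1 (Os03g0162000), an enzyme of auxin synthesis, had 102 reads against 19 (2.17, 1.49 to 2.99). In the auxin list 3 of 92 counted genes were higher (3.26%) and 2 lower (2.17%), beside 2.33% and 5.65% of all genes. GA20OX1 (Os03g0856700), a gene of gibberellin synthesis, had 5337 against 864 reads and was over the fold. Its paralog 20ox2 (Os01g0883800) had no read against 65, at least 25.3-fold lower. In the gibberellin list 2 of 19 counted genes were higher (10.5%, beside 2.33% of all genes) and 1 lower (5.26%, beside 5.65%). Besides GA20OX1, the higher member was GA2OX1 (Os05g0158600), with 131 against 22 reads (2.32, 1.69 to 3.07). OsIPT7 (Os05g0551700), a cytokinin synthesis gene, had 35 reads against 0, with 2 unique. Of 36 counted jasmonate genes, 4 were lower (11.1%, beside 5.65%) and 0 higher. With RPKM 3 and 1 were lower. OsOPR5 (Os06g0215600) had 19 against 354 (−4.41, −5.19 to −3.78), and the lipoxygenase gene Lox2:Os:1 (Os08g0508800) had 6 against 113 (−4.35, −5.93 to −3.29).

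Among transcription factors, OsWRKY12 (Os01g0624700) had 2200 reads under N-W+ and 255 under N+W+, a log2 ratio of 2.88 (2.70 to 3.08). WRKY62 (Os09g0417800), a repressor of defence genes, had 29 against 245 (−3.28, −3.91 to −2.74). Of 79 counted WRKY genes 3 were higher and 3 lower (3.80% each, beside 2.33% and 5.65% of all genes), with a median of 0.24. Of 124 counted bHLH and MYB genes 0 were higher and 11 lower (8.87%, beside 5.65%), with OsbHLH163 (Os07g0676600) at 20 against 176 reads for one of them (−3.33, −4.11 to −2.69). Of 62 NAC genes 0 were higher and 4 lower (6.45%, near the share of all genes), with ONAC118 (Os10g0413700) at 17 against 166 (−3.47, −4.32 to −2.79).

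The largest differences in CPM were mostly smaller in fold. OsPUB2 (Os05g0476700), a U-box ubiquitin ligase gene and the gene with the most reads under N-W+, had 102900 reads against 47040 (0.91, 0.89 to 0.92). OsC3H33 (Os05g0128200), OsDREB1A (Os09g0522200), WZF1 (Os03g0764100), OsTPP7 (Os09g0369400) and SNAC1 (Os03g0815100) had log2 ratios of 0.89, 1.13, 1.05, 0.82 and 0.83. OsDREB1A and SNAC1 are regulators of the response to cold and drought. On the other side, OsNAS1 (Os03g0307300), a nicotianamine synthase of metal transport and the gene with the most reads under N+W+, had 31095 against 92311 (−1.79, −1.81 to −1.77). Its neighbour NAS2 (Os03g0307200) had 24196 against 46387 (−1.16, −1.18 to −1.14). Under water stress (N22 roots, N-W- over N+W-) the ratios of OsNAS1 and NAS2 were 2.17 and 1.69. About the same share of their reads was unique in both libraries, 40.6% and 40.3% for OsNAS1. OsBGLU1 (Os03g0749300), a beta-glucosidase gene, had 2741 against 20303 reads (−3.11, −3.17 to −3.05).

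The lower genes often lay side by side. Of the 1274 lower genes, 395 (31.0%) had an adjacent counted gene that was also over the fold and lower, against 10.7% of all counted genes. For the higher genes this held for 61 of 526 (11.6%), against 4.57%. The clusters include copies that share reads, as with OsBURP01 and OsBURP06.

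The same genes were looked up in 4 pairs of libraries that share no library with this one. In N22 roots under water stress (N-W- against N+W-), 547 genes were higher (2.42% of those counted there) and 854 lower (3.78%). Of the 526 genes higher at ample water 403 were counted there, 304 had the same sign and 97 (24.1%) were over the fold in the same direction. Those 97 are 18.4% of the first list and 17.7% of the second. Of the 1274 lower genes 1092 were counted, 855 had the same sign and 333 (30.5%) were over the fold in the same direction, which is 26.1% of the first list and 39.0% of the second.

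In IR64 roots at ample water, where 2.45% of counted genes were higher and 5.2% lower, 113 of 393 higher genes (28.8%) and 370 of 1044 lower genes (35.4%) were over the fold in the same direction. In IR64 roots under water stress, where 5.29% were higher and 5.52% lower, this held for 157 of 392 (40.1%) and 432 of 1092 (39.6%). In N22 shoots, where 17.6% were higher and 11.0% lower, 61 of 366 higher genes (16.7%) went the same way and 60 the opposite way. The N-W+ shoot library held only 2420338 exon reads and its N+W+ library 6827636, against at least 8272195 in each root library. Fewer reads therefore suffice to pass the level filter in shoots, and the effect of depth on these shares was not tested. Of the lower genes counted in shoots, 257 of 874 (29.4%) went the same way and 305 (34.9%) the opposite way.

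**Figure D5:**
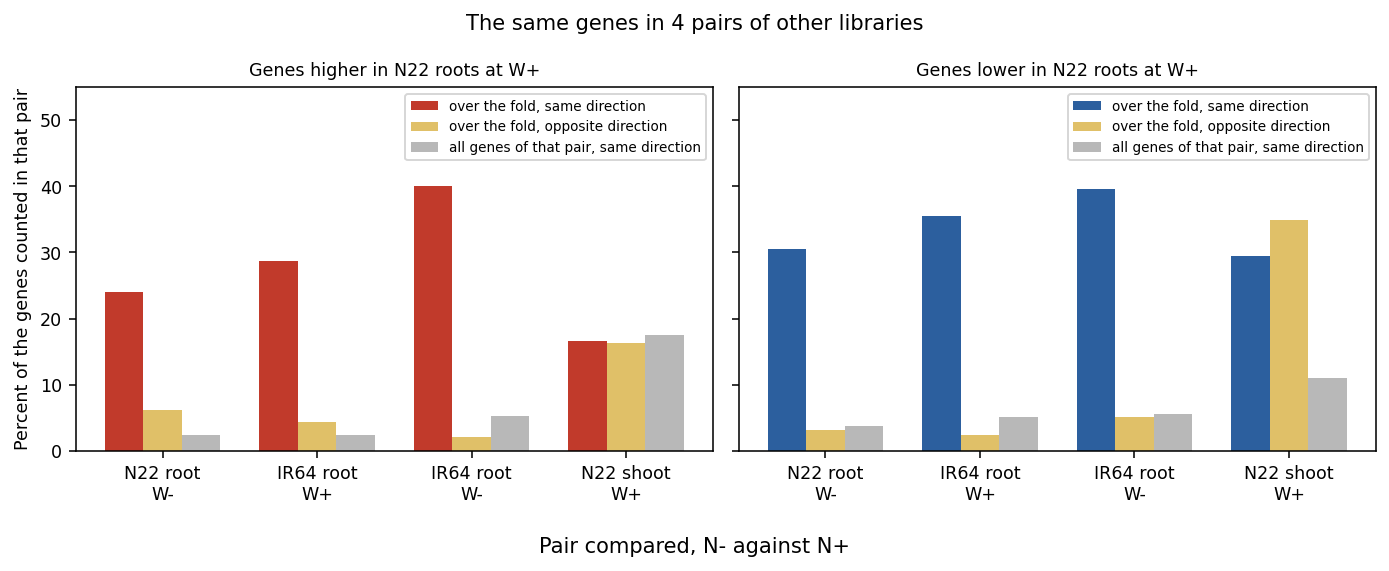
Percent of the genes over the fold in N22 roots at ample water that were over it in 4 other pairs (N- against N+), among those counted in that pair. Left, the 526 higher genes, and right, the 1274 lower genes, with the same direction in red or blue, the opposite in yellow and the share of all genes of that pair in grey. In the 3 root pairs the same direction reached 24.1% to 40.1%, and in shoots 16.7% and 29.4%. The shoot libraries held fewer reads than any root library.

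Over the fold in the same direction in all 4 root pairs were 28 higher genes (5.32% of the 526) and 112 lower genes (8.79% of the 1274). The higher ones with a symbol were NRT2.4, OsDjC10, NRT2.3, ERF92, IIP3, OsAMT1, OsWAK12, OsNAR2.2, OsASNase2, OsALN, MTd, OsUMAMIT9, OsUGT706E2 and OsDUR3. The lower ones included NRT1.1B, OsACTPK1, NIGT1, OsUPS1, OsRMC, DIP3, OsIPS1, PT6, PR1A and Cht9. This set was formed after the values were seen. NRT2.1, NRT2.2 and NAR2.1 were not in it. Under water stress in N22 their log2 ratios were 0.43, 0.30 and 0.02, and in IR64 at ample water 7.53, 5.27 and 3.55. In N22 at full nitrogen the first of these genes already had 2331 reads, against 28 in IR64. Against the N+W+ library used here, N22 roots under both stresses (N-W-) had log2 ratios of 0.9, 0.7 and 0.6, a comparison that shares its control with this one.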

How the data were processed

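Total exon reads of N22 roots under N-W+ and N+W+ were the input. The authors trimmed the reads, mapped them in the CLC Genomics Workbench to IRGSP-1.0 with permissive settings, and deposited counts of exon, gene, intron and uniquely mapped reads without normalization. The authors also deposited RPKM, which divides by exon length and by the mapped fragments of each library. Base calls came from CASAVA, per the labels, and whether counting used strand is not given in the sources used here. Of the other files, 6 root and 2 shoot libraries were used for scaling and comparison, and 6 shoot libraries were not used here.

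Counts were scaled by TMM (edgeR 4.0.16, R 4.3.3) over the 8 root libraries, so that 1 CPM was 11.37 reads under N-W+ and 9.74 under N+W+. Log2 ratios used a prior count of 0.5. Intervals are exact binomial (Clopper-Pearson, scipy 1.17.1). Where a library had no read, 3 reads per library gave the smallest fold, which corresponds to 0.264 and 0.308 CPM. No model was fitted and no p computed. The code was tested on simulated data. Python 3.11.15, pandas 2.3.3, numpy 2.4.6 and matplotlib 3.10.9 were used, with DESeq2 1.42.0 for one alternative scaling.

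Genes were named by rule: the 15 higher and 15 lower with the interval bound nearest 0 furthest from it, likewise 12 and 12 with a symbol, all members of 5 nitrogen lists, up to 3 a side in the other lists, and the 10 largest gains and losses in CPM. The 36 lists are symbol patterns edited by name. Members and lists were chosen with earlier results of these data known. The alternatives were 3 other scalings, 2 level filters, unique reads, gene reads, a prior count of 5, RPKM with 2 pseudocounts, and thinning to equal depth.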

Additional observations from a re-analysis of the deposited data

Results flagged for a closer look

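A pair of genes without a symbol were higher under N-W+ in N22 and lower in IR64, both at ample water. Os07g0644400 had 516 reads in N22 under N-W+ and 0 under N+W+ (log2 ratio 9.79), but 0 and 177 in IR64 (−9.30). Os07g0502550 had 172 and 0 reads in N22 (8.21), but 0 and 94 in IR64 (−8.39). Between the water-stressed libraries the order was another. In N22 (N-W- against N+W-) Os07g0644400 had 172 against 3 reads and Os07g0502550 74 against 111 (−0.29). In IR64 they had 50 against 0 and 244 against 0 (9.20 for Os07g0502550). Under water stress Os07g0644400 was thus higher in both genotypes, while Os07g0502550 was over the fold and higher in IR64 alone. With 1 pooled library per group the difference between genotypes was not tested. At most 0.19% of the N22 reads of these genes were unique, and neither gene passed the level filter from unique reads.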

How the results depend on the processing

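No paired analysis was possible because each group is 1 pooled library and the labels carry no replicate number. For the same reason no library could be left out. With library totals, TMM over the pair, DESeq2 size factors, gene reads or thinning, 1730 to 1862 genes were over the fold, and 28.3%, 27.6%, 29.3%, 30.1% and 28.9% of them were higher. At 5 CPM 890 genes were over it (199 higher, 691 lower, 22.4% higher), with 98 higher genes clear of the fold. With no filter beyond 1 read 3963 were over it (1531 and 2432, 38.6% higher). Unique reads gave 26.0% higher and 68 higher genes clear of the fold. A prior count of 5 gave 1108 genes (241 higher, 21.8% higher). RPKM gave 287 genes at a pseudocount of 1 (114 higher and 173 lower, 39.7% higher) and 1070 at 0.1 (613 lower, 42.7% higher). Fewer genes were counted at 5 CPM (15701 against 22558), and how far this accounts for the counts there was not tested. The totals behind RPKM stand in another proportion between the libraries than exon reads (33791486 against 38231528 mapped fragments), which shifts its ratios upward, and its pseudocount shrinks the ratios of low genes. The cause of the other changes was not tested. Of the genes over the fold, 310 higher (58.9%) and 966 lower (75.8%) stayed over it from unique reads. Among the 195 named genes counted, none of those over the fold changed sign under any alternative in which it was counted. Of 36 list medians, 28 of 396 values under the alternatives lay outside the order-statistic interval of the main median. Genes of few reads set the limit: 226 higher and 391 lower genes had fewer than 30 reads in the pair.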

Other observations

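Heat shock genes held members on both sides. The heat shock factors HSFC2A (Os02g0232000) and OsHsfC1b (Os01g0733200) had 645 reads under N-W+ against 74 under N+W+ (2.89, 2.55 to 3.27) and 211 against 26 (2.77, 2.21 to 3.45). The chaperone gene OsHSP82A (Os08g0500700) had 2002 against 9093 (−2.41, −2.48 to −2.34), and between water-stressed N22 roots its ratio was 1.66. Of 57 counted genes 4 were higher (7.02%, beside 2.33% of all genes) and 2 lower (3.51%, beside 5.65%), with a median of −0.05. In the ethylene list 2 of 42 genes were higher (4.76%) and 1 lower (2.38%), and in the cytokinin list 1 of 28 each way (3.57%). Of 45 phenylpropanoid genes 1 was higher (2.22%) and 4 lower (8.89%, and 0 with RPKM at either pseudocount). OsCAD5 (Os08g0270400), of the lignin pathway, had 31 reads against 1 (4.17, 2.15 to 10.08).

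The remaining lists held at most 3 members over the fold in a direction. Among 65 cell cycle genes 0 were higher and 3 lower (4.62%, beside 5.65% of all genes), with CycB1_1 (Os01g0805600), a mitotic cyclin, at 34 against 130 reads (−2.14, −2.75 to −1.60). None of 79 ribosomal protein genes and none of 13 polyamine genes was over the fold in either direction. OsHAK4 (Os08g0466200), of a potassium carrier family, had 0 reads against 33, at least 12.8-fold lower, and 2 of 24 potassium genes were lower (8.33%, beside 5.65%). Of 15 sulfate genes 1 was higher (6.67%, beside 2.33% of all genes), OsSultr1_1 (Os03g0195800), a sulfate transporter, with 162 reads against 30 (2.19, 1.64 to 2.82). Of 29 LEA genes 2 were lower (6.90%, near the 5.65% of all genes). Of 19 starch genes 2 were higher (10.5%, beside 2.33%) and 1 lower (5.26%). At 5 CPM 0 of the 12 counted were over the fold, and from unique reads 1 of 18 was higher and 1 lower. Of 4 strigolactone genes 1 was lower (beside 5.65% of all genes), SLB2 (Os01g0701400), with 3 reads against 14. Its unique reads were 1 and 0, so its direction is uncertain. Of the 3 seed remnant markers counted 1 was higher (beside 2.33% of all genes), Os09g0457800, with 13 reads against 0 and no unique read. Neither SLB2 nor Os09g0457800 passed the level filter from unique reads.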
